A study of Mus musculus with 12 samples.

Results

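The genes described here are p53 and its target genes, 36 mouse genes made up of p53 itself (Trp53), genes of its direct regulators and genes that p53 is known to switch on. A gene was followed through probe sets annotated with its symbol alone, and through the probe set with the highest mean over 12 arrays where there were several. By this rule 33 of the 36 genes were measured, among 19938 genes with such a probe set and 28853 probe sets in all. Trp53, Bax and Fdxr are not analysed here. Only Sfn had more than 1 usable probe set.

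The cultures were mouse embryonic fibroblasts, primary connective-tissue cells grown from C57BL/6J embryos of stage E12.5-14.5. All embryos were male, and RNA was taken at passage 5 from cells that had received no treatment. The 4 groups of 3 cultures were mTERT KO, which lacks telomerase reverse transcriptase, its wild type mTERT WT, mTR KO, which lacks the telomerase RNA, and its wild type mTR WT. Both knockouts were first generation, G1, and in each of 3 sets the design describes the knockout and wild-type animals as littermates. Each culture was hybridised to 1 array, so the spread within a group covers differences between cultures and between arrays together.

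p53 is a transcription factor that is held at a low level by Mdm2 and Mdm4 and is stabilised when DNA is damaged. It then raises genes that arrest the cell cycle, repair DNA or start apoptosis, and it also raises Mdm2, which closes a feedback loop. Telomeres that have become too short are read by the cell as DNA damage and are a known trigger of p53. A first-generation knockout still carries the telomeres it inherited from parents with telomerase, and the comparisons ask whether p53 targets differ at this stage.

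Values are log2 signals on the authors' scale, so a difference of 1 is a factor of 2 in signal. Probe sets of different genes bind with different strength, so a level is set only against the same gene in other cultures. Background was taken in each array as the 95th percentile of 1035 odorant receptor probe sets and lay between 4.93 and 5.09. Tert, the gene deleted in the mTERT line, read 4.99, 4.83 and 4.75 in mTERT KO cultures 1 to 3 and 5.72, 5.74 and 5.51 in mTERT WT cultures 1 to 3 (difference −0.79 ± 0.08 SE, limma, adjusted p = 0.0352). Terc, the gene deleted in the mTR line, stayed below background in all 12 cultures, so its array signal checks no label. All 11 fibroblast markers were above background in every culture, and so were all 16 macrophage markers. The mean macrophage signal ran from 7.76 to 9.52 in mTERT KO, from 8.03 to 9.65 in mTERT WT, from 7.77 to 9.79 in mTR KO and from 6.91 to 8.97 in mTR WT cultures. In mixed cultures a smaller number of cells of a type and less RNA per cell cannot be told apart.

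p53 binds DNA as a tetramer at the p53 response element, a pair of 10-base repeats. Of the 36 genes 28 had a RefSeq promoter entry (assembly GRCm38.p6, 250 bases before to 50 after the start of a transcript), 25 of them measured here. Each window was searched on both strands for 2 adjoining repeats, 20 bases in all and with no spacer, with the core C and G of both repeats fixed and at most 3 mismatches elsewhere. A match was found for 5 of the 28 genes, Trp53 among them, and for 1.63% of the 27025 genes with a promoter entry. The 4 measured genes are shown because they hold such a match close to the start of transcription and so let its spelling be seen beside their signals. Each sequence is the 250 bases before the start, 5′ to 3′ on the gene's own strand, with the match in capitals. The Ccng1 match had 1 mismatch, a closeness found in 0.067% of all windows, and the others had 3. A match is a description of letters and not evidence of binding in these cells, and a gene without one may be bound elsewhere.
Ccng1 (chr11:40755287-40755536, minus strand): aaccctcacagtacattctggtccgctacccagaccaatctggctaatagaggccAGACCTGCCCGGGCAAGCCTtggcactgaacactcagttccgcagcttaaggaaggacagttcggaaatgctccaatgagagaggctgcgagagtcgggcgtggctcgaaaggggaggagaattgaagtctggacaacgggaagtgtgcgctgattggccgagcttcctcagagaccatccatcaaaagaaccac
Aen (chr7:78895808-78896057, plus strand): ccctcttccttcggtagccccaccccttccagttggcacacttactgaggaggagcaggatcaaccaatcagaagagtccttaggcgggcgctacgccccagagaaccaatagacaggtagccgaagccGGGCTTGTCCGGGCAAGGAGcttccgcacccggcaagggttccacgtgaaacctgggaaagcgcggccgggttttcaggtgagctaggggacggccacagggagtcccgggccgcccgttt
Bbc3 (chr7:16309333-16309582, plus strand): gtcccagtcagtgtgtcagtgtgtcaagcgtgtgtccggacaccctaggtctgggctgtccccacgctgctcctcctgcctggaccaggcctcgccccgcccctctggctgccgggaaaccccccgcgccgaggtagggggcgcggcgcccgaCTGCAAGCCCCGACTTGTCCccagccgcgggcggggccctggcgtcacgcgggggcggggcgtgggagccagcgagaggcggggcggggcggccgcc
Sesn1 (chr10:41887189-41887438, plus strand): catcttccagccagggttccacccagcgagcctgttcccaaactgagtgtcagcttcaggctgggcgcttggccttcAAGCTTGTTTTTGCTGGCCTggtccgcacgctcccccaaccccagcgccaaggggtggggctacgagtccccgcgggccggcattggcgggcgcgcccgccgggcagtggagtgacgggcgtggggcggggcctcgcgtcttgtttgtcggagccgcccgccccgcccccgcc
In none of these 4 genes did either knockout differ from its wild type by more than 0.14 on the log2 scale. Ccng1 encodes cyclin G1, a feedback partner of Mdm2. It read 11.50, 11.49 and 11.82 in mTERT KO and 11.57, 11.54 and 11.79 in mTERT WT cultures, and 11.40, 11.62 and 11.78 in mTR KO and 11.59, 11.67 and 11.53 in mTR WT cultures. Both pairs of groups overlapped, with differences of −0.03 ± 0.12 in the mTERT and 0.00 ± 0.12 in the mTR comparison (SE, n = 3 each).

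The p53 targets were expressed in these fibroblasts. Of the 33 measured genes 31 were above background in every culture, Ddb2 in 9 of 12 cultures and Perp in 5 of 12, and none was below background throughout. Genes differed in how far they moved between cultures. Pmaip1, which encodes the pro-apoptotic protein Noxa, had the widest span over the 12 cultures at 2.23, followed by Sfn at 2.07, Epha2 at 1.46 and Fas at 1.38. Apaf1, Rchy1 and Bbc3 spanned 0.24, 0.24 and 0.25. The heat map of the 33 genes shows how these spans fell over the cultures.

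**Figure D1:**
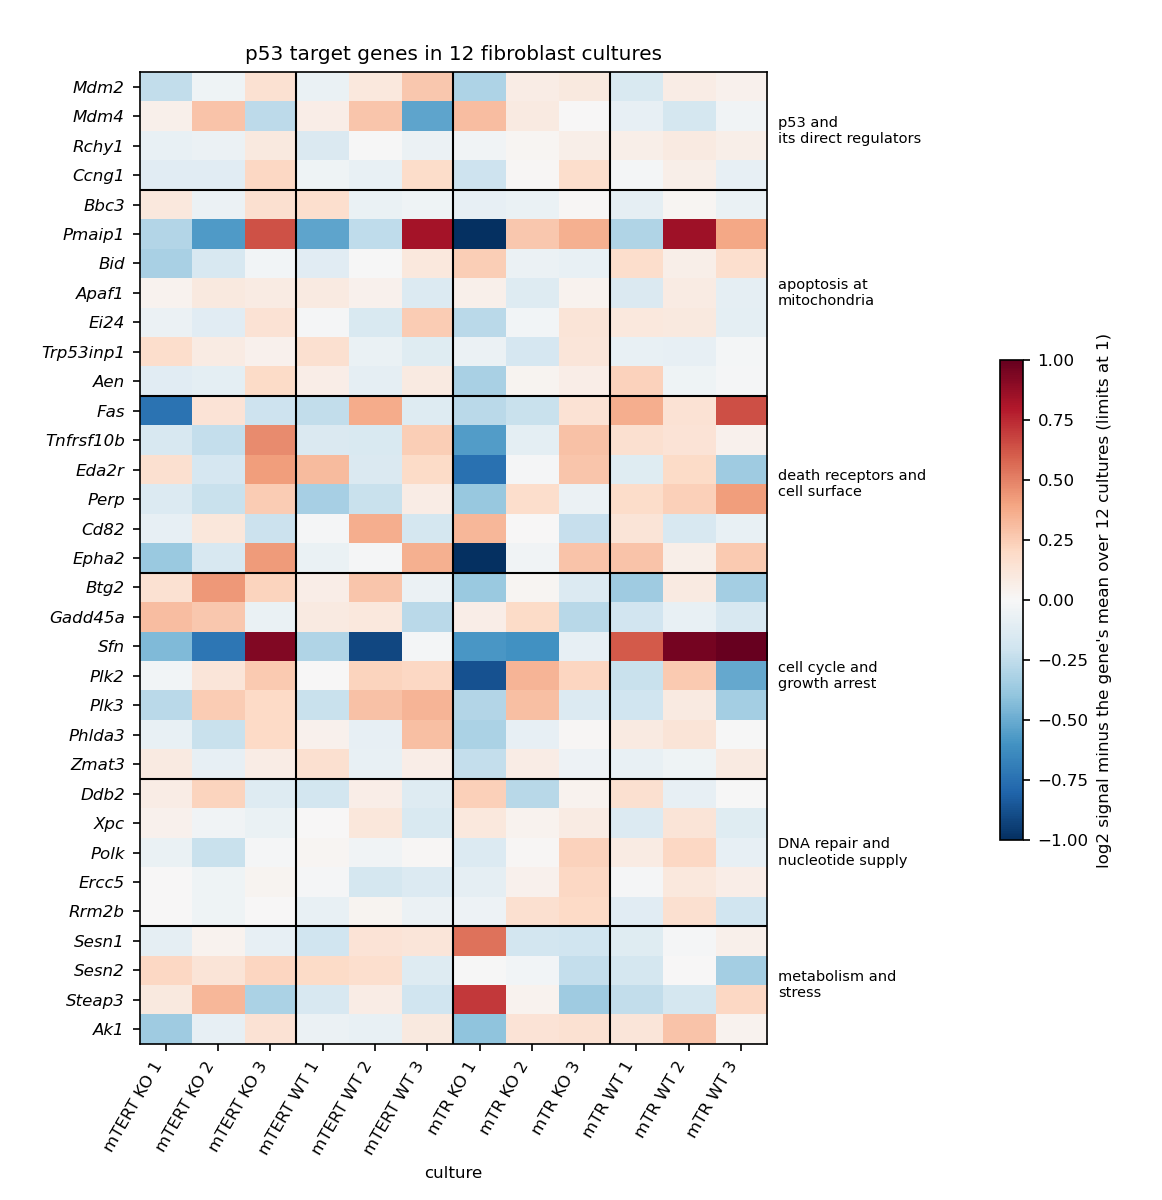
Each row is a gene and each column a culture. Colour gives the log2 signal minus the gene's mean over 12 cultures, with colours ending at 1 in either direction. Sfn is high in the 3 mTR WT cultures and in mTERT KO 3, and Pmaip1, Epha2, Eda2r and Plk2 are low in mTR KO 1.

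The main fit, which did not use the mTERT pairs described below, called no p53 target between mTERT KO and mTERT WT cultures. None of the 33 genes passed the test against mTERT WT (limma, Benjamini-Hochberg over all probe sets, 5% threshold, 0.00347% of all probe sets called), and each had an adjusted p of 1. None had an unadjusted p below 0.05, against 1.92% of all probe sets. Differences were above 0 for 16 genes and below 0 for 17, with a median of −0.01 against 0.00 for all probe sets and a range from −0.27 to 0.33. The 95% intervals bound what these cultures could have hidden. For 27 of 33 genes (81.8%, against 92.1% of all probe sets) the interval lay within 1.5-fold in either direction, and for 31 within 2-fold. The other 2, Pmaip1 and Sfn, varied most between cultures. No gene had mTERT KO and mTERT WT cultures that did not overlap, against 5.97% of all probe sets.

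**Figure D2:**
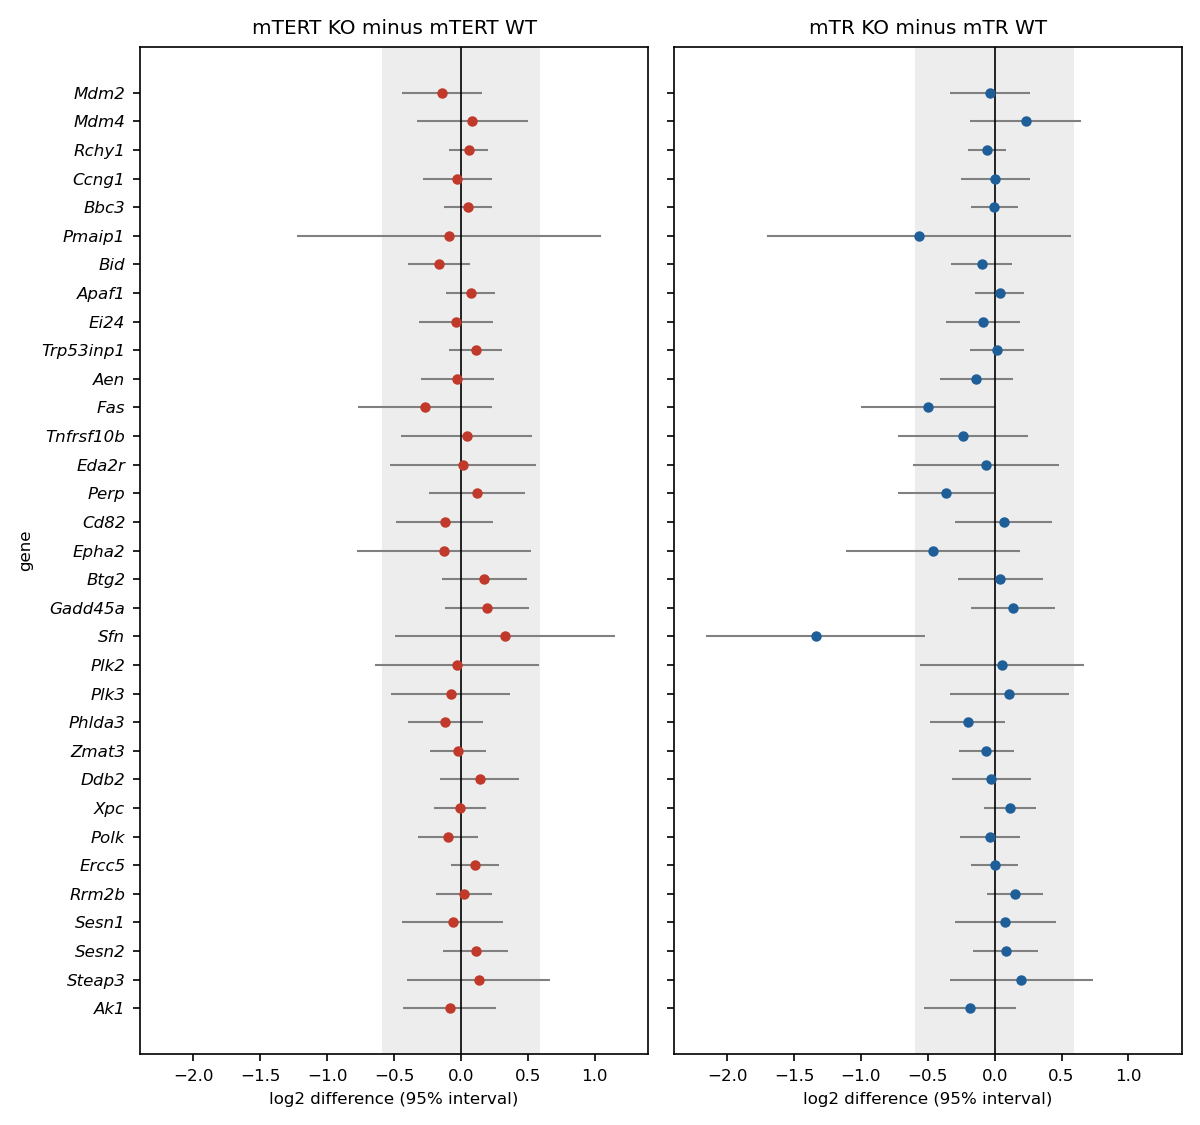
Log2 differences, knockout minus wild type, for the 33 genes in the mTERT line (left) and the mTR line (right). Points are limma estimates, bars are 95% intervals with n = 3 cultures per group, and the grey band marks 1.5-fold in either direction. In the mTERT line all 33 bars cross 0, and in the mTR line those of Sfn, Perp and Fas lie below 0.

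Among the regulators of p53, Mdm2 encodes the ubiquitin ligase that degrades p53 and is itself a target. Mdm2 read 9.35, 9.55 and 9.74 in mTERT KO and 9.52, 9.69 and 9.86 in mTERT WT cultures. The groups overlapped, with a difference of −0.14 ± 0.14 and a 95% interval from −0.44 to 0.15. Mdm4, the relative of Mdm2 that blocks the activation domain of p53, read 8.68, 8.91 and 8.36 in mTERT KO and 8.69, 8.90 and 8.10 in mTERT WT cultures. Culture 3 was the lowest of both groups, and the difference was 0.08 ± 0.19. The ligase gene Rchy1 and Ccng1 differed by 0.06 ± 0.07 and −0.03 ± 0.12.

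Of the 7 genes listed under apoptosis 3 had differences above 0 and 4 below, with a median of −0.03. Bid, which carries the death receptor signal to mitochondria, read 6.28, 6.44 and 6.57 in mTERT KO and 6.49, 6.59 and 6.71 in mTERT WT cultures. Its difference of −0.16 ± 0.10 had the smallest unadjusted p of the 33 genes (0.143, limma, adjusted p = 1). Trp53inp1, a stress protein that promotes phosphorylation of p53, read 10.40, 10.30 and 10.26 in mTERT KO and 10.38, 10.16 and 10.10 in mTERT WT cultures, a difference of 0.11 ± 0.09. Pmaip1 read 7.47, 7.19 and 8.39 in mTERT KO and 7.23, 7.51 and 8.59 in mTERT WT cultures. Culture 3 was the highest of both groups for Pmaip1, and the difference of −0.09 ± 0.52 left a 95% interval from −1.23 to 1.04.

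The 6 genes of death receptors and the cell surface split evenly, 3 above 0 and 3 below, with a median of −0.05. Fas encodes the CD95 death receptor. It read 6.71, 7.59 and 7.24 in mTERT KO and 7.20, 7.81 and 7.32 in mTERT WT cultures, with a difference of −0.27 ± 0.23. Without mTERT KO 1, the lowest Fas culture of the study, the difference was −0.03, and without mTERT KO 2 it was −0.47. Tnfrsf10b, the TRAIL receptor, and Eda2r, a receptor for ectodysplasin A2, differed by 0.04 ± 0.22 and 0.01 ± 0.25.

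The cell cycle and growth arrest group held 7 genes, 3 above 0 and 4 below, with a median of −0.02. Gadd45a, a DNA damage inducible gene that restrains entry into mitosis, read 9.58, 9.54 and 9.21 in mTERT KO and 9.37, 9.38 and 9.0 in mTERT WT cultures. The groups overlapped because culture 3 was low in both, and the difference was 0.20 ± 0.14 (unadjusted p = 0.199, limma, adjusted p = 1). Btg2, an antiproliferative gene, read 9.01, 9.29 and 9.08 in mTERT KO and 8.92, 9.13 and 8.80 in mTERT WT cultures, a difference of 0.17 ± 0.14. Sfn encodes 14-3-3 sigma, which holds cells before mitosis. It read 6.74, 6.46 and 8.11 in mTERT KO and 6.88, 6.28 and 7.16 in mTERT WT cultures. Its difference of 0.33 ± 0.37 rested on mTERT KO 3, and without that culture it was −0.17.

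In DNA repair and nucleotide supply 3 of 5 genes lay above 0 and 2 below, and in metabolism and stress 2 of 4 lay above and 2 below. Ercc5 encodes the XPG nuclease of nucleotide excision repair. It read 8.17, 8.13 and 8.20 in mTERT KO and 8.16, 7.99 and 8.03 in mTERT WT cultures, a difference of 0.11 ± 0.08. Xpc, the damage sensor of the same repair pathway, differed by −0.01 ± 0.09, and Rrm2b, the ribonucleotide reductase subunit that p53 induces, by 0.02 ± 0.10. All 9 genes of both groups had 95% intervals within 2-fold, and 8 of them within 1.5-fold.

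The mTERT cultures of the same number varied together, so the differences were also read within the 3 pairs. The pair number took a median of 75.1% of the variance of the 33 genes in the mTERT line, against 55.6% for all probe sets, and genotype took 8.94% against 7.53%. The sign was the same in all 3 pairs for 12 genes (36.4%), against 25.1% of all probe sets. The 5 genes that were higher in the knockout in all 3 pairs (15.2%, where 3639 of 28853 probe sets were) were Trp53inp1, Btg2, Gadd45a, Ddb2 and Ercc5. The 7 genes that were lower in all 3 pairs (21.2%, where 3603 of 28853 probe sets were) were Mdm2, Bid, Fas, Cd82, Plk3, Phlda3 and Polk. The other 21 differed in sign between pairs. All probe sets include many dim ones, with 59.7% above the mean of the background levels. The median of the mean signals was 8.19 for the p53 targets and 5.48 for all probe sets. Here and in the later counts by culture, shares among probe sets of like signal were not tested.

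The within-pair differences were small and in a few genes nearly equal. Gadd45a differed by 0.21, 0.16 and 0.21 in pairs 1 to 3, knockout minus wild type. Mdm2 differed by −0.18, −0.14 and −0.11, and Bid by −0.21, −0.15 and −0.13. Phlda3, which encodes an inhibitor of Akt at the membrane, differed by −0.11, −0.14 and −0.10. Fas spread more widely, at −0.49, −0.23 and −0.08. Of these genes Gadd45a was higher in the knockout in all 3 pairs, and Mdm2, Bid, Phlda3 and Fas were lower. Whether p53 activity differed was not tested. With the mTERT pairs as a block, none of the 33 genes had an unadjusted p below 0.05 (limma, adjusted p = 1 for each). With the number within each line as a block, Fas alone had one (unadjusted p = 0.0228, adjusted p = 1.00), against 2.73% of all probe sets.

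**Figure D3:**
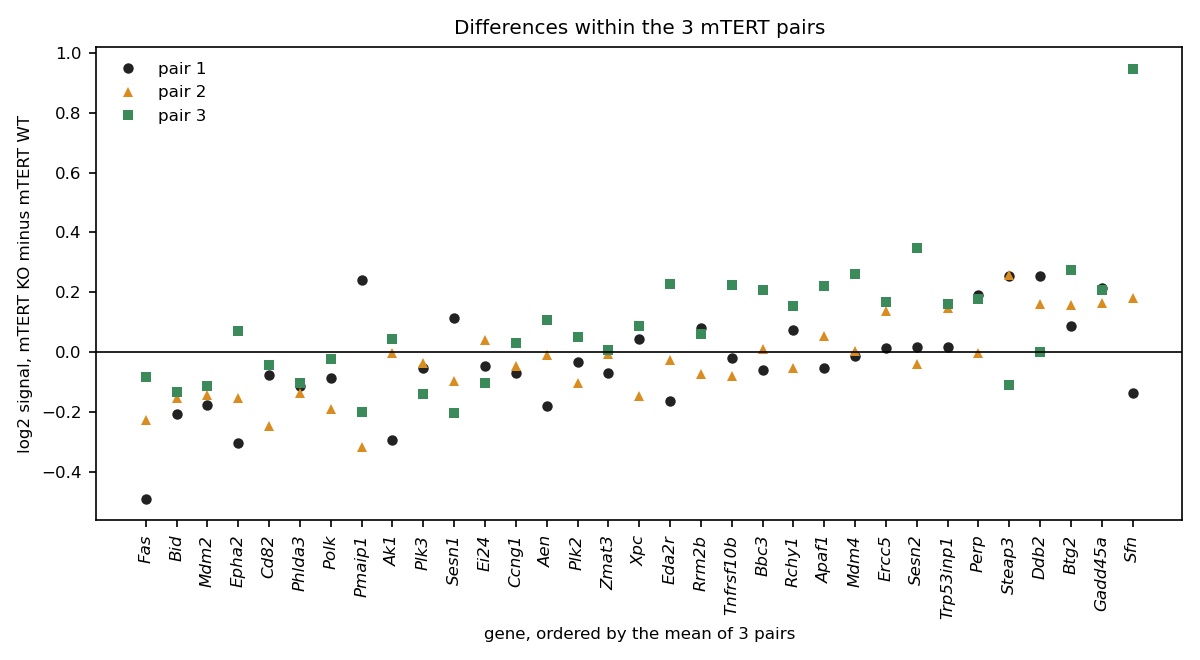
Log2 differences within the 3 mTERT pairs, mTERT KO minus mTERT WT, for the 33 genes ordered by their mean. Each symbol is 1 pair. Most genes have pairs on both sides of 0, and Sfn in pair 3 stands at 0.95.

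In the mTR line none of the 33 genes passed the test either (limma, 0.0% of all probe sets called), and the smallest adjusted p was 0.839. Sfn, Perp and Fas had an unadjusted p below 0.05, all with lower signals in the knockout. They make up 3 of 33 genes, against 5.82% of all probe sets and 3.59% for lower signals alone. Without mTR WT 1 or without mTR WT 3, Sfn was the 1 gene left with an unadjusted p below 0.05. Differences were above 0 for 14 genes and below 0 for 19, with a median of −0.03 against 0.00 for all probe sets. The 95% interval lay within 1.5-fold for 23 of 33 genes (69.7%, against 89.9% of all probe sets) and within 2-fold for 29. Knockout and wild-type cultures did not overlap for 5 genes, against 11.4% of all probe sets. Mdm4 was the 1 gene of these with higher knockout cultures (5.33% of all probe sets), and Sfn, Perp, Fas and Rchy1 had lower ones (6.07% of all probe sets).

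Other lists of genes also differed in mean between the mTR groups, while the list means of single cultures overlapped. All 16 macrophage markers had a higher mean in mTR KO, with a median difference of 0.75. So had all 9 interferon-stimulated genes, with a median of 0.76, and all 14 mitotic genes, with a median of 0.17. None of these genes reached an unadjusted p of 0.05. Genes of a list can vary together, so these counts are not independent. The mean mitotic signal was 8.42, 7.83 and 7.43 in mTR KO 1 to 3 and 7.84, 7.51 and 7.67 in mTR WT 1 to 3. The part of these lists in the differences of p53 targets was not tested.

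Sfn had the largest difference of the p53 targets. It read 6.60, 6.58 and 7.10 in mTR KO and 7.80, 8.14 and 8.35 in mTR WT cultures. Every knockout culture was below every wild-type culture, and the difference was −1.34 ± 0.37 (95% interval −2.16 to −0.52, unadjusted p = 0.0042, limma, adjusted p = 0.839). This put the mean mTR KO signal at 0.396 of that in mTR WT. The second Sfn probe set gave −1.31 ± 0.43. Sfn and Perp are both known from epithelia, where Perp is part of desmosomes. Of 10 epithelial markers 6 were below background in every culture, namely Epcam, Krt14, Krt15, Dsp, Cldn7 and Esrp1. Krt8 was above background throughout, Cdh1 and Krt18 in 9 of 12 cultures, and Krt5 in 1. The mean epithelial signal was 4.68 to 4.92 in mTR KO and 4.76 to 5.02 in mTR WT cultures. A part of epithelial cells in the Sfn and Perp differences was not tested.

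**Figure D4:**
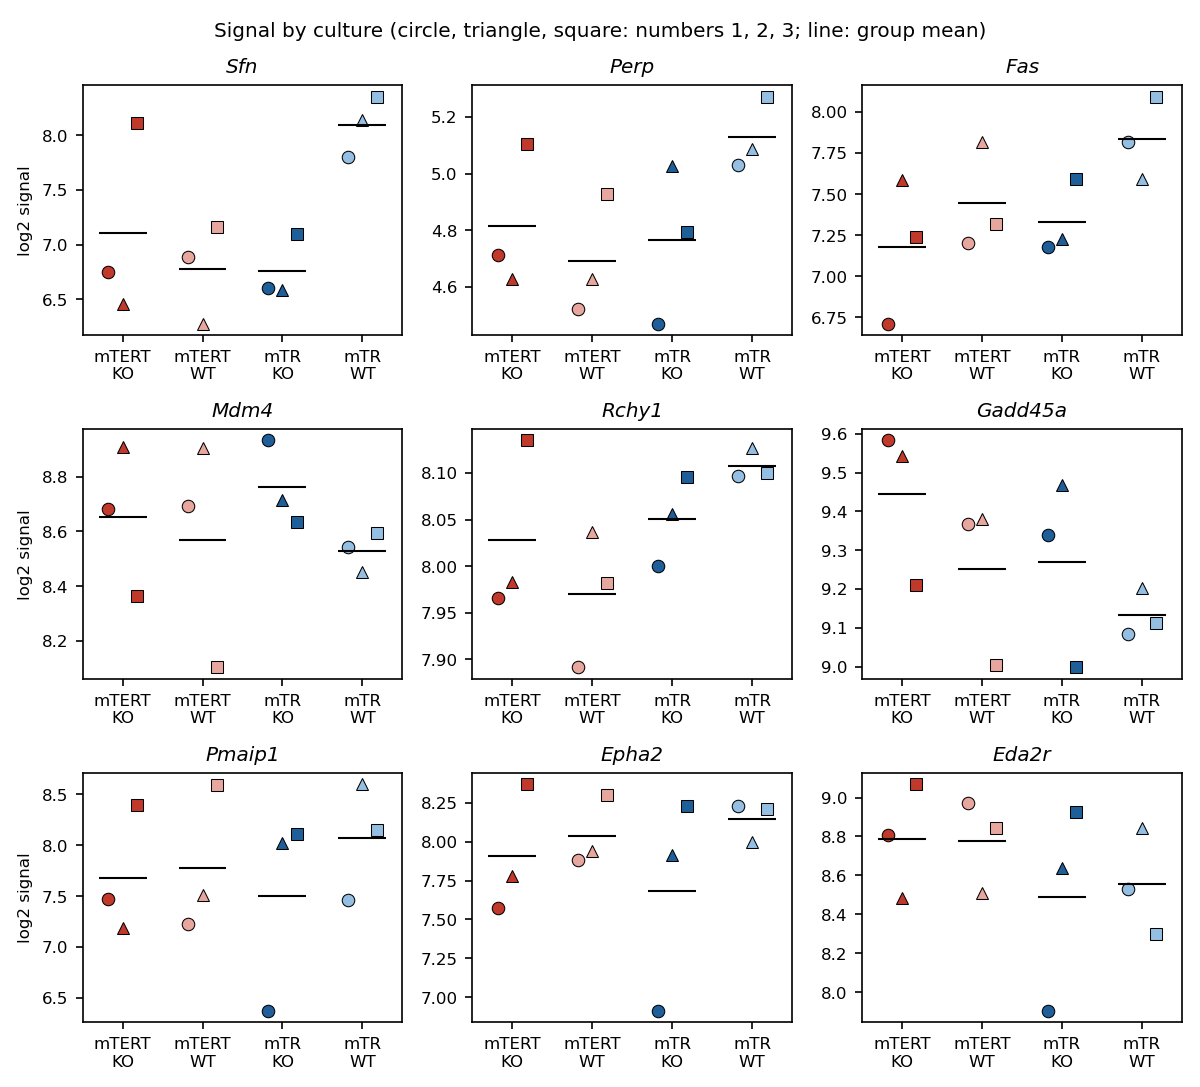
Log2 signal of 9 genes in every culture, by group. Circle, triangle and square mark cultures 1, 2 and 3, the line is the group mean, and each panel has its own scale. Sfn, Perp and Fas are lower in the mTR KO than in the mTR WT cultures without overlap, and mTR KO 1 is the lowest point for Pmaip1, Epha2 and Eda2r.

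Among death receptors and cell surface genes 5 of 6 lay below 0 in the mTR line, with a median of −0.30. This depended in part on mTR KO 1. Without that culture Tnfrsf10b was at −0.02 (−0.235 with all arrays) and Eda2r at 0.225 (−0.07 with all arrays). Fas, Perp and Cd82 were then at −0.42, −0.22 and −0.08. Fas read 7.18, 7.23 and 7.59 in mTR KO and 7.81, 7.59 and 8.09 in mTR WT cultures. The highest knockout value, 7.590, lay just under the lowest wild-type value, 7.592, and the difference was −0.50 ± 0.23 (unadjusted p = 0.0495, limma, adjusted p = 0.839). Perp read 4.47, 5.03 and 4.79 in mTR KO and 5.03, 5.09 and 5.27 in mTR WT cultures. All these Perp values lie close to background, and the difference of −0.37 ± 0.16 (unadjusted p = 0.0472) is that of a dim probe set. Epha2, an ephrin receptor, read 6.91, 7.91 and 8.23 in mTR KO and 8.23, 8.0 and 8.21 in mTR WT cultures. Its difference of −0.46 ± 0.30 rested on mTR KO 1, and without that culture it was −0.07. With all arrays Cd82, a tetraspanin, was the 1 gene of the group above 0, at 0.07 ± 0.16.

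The regulators of p53 showed small differences in the mTR line. Mdm4 read 8.93, 8.72 and 8.63 in mTR KO and 8.54, 8.45 and 8.59 in mTR WT cultures. Every knockout culture was above every wild-type culture, with a difference of 0.23 ± 0.19 (unadjusted p = 0.245, limma, adjusted p = 0.859) that was 0.15 without mTR KO 1. Rchy1 encodes Pirh2, a further ubiquitin ligase for p53. It read 8.001, 8.056 and 8.095 in mTR KO and 8.096, 8.127 and 8.100 in mTR WT cultures, a difference of −0.06 ± 0.07 in which the groups nearly touched. Mdm2 read 9.28, 9.66 and 9.69 in mTR KO and 9.44, 9.66 and 9.63 in mTR WT cultures. These groups overlapped, with a difference of −0.04 ± 0.14 and a 95% interval from −0.34 to 0.26.

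The remaining groups held no gene with an unadjusted p below 0.05 in the mTR line apart from Sfn. Of the 7 genes listed under apoptosis 5 lay below 0, with a median of −0.09. Pmaip1 read 6.37, 8.02 and 8.11 in mTR KO and 7.46, 8.60 and 8.15 in mTR WT cultures. Its difference of −0.57 ± 0.52 came from mTR KO 1 and was −0.00 without that culture. Phlda3 read 9.03, 9.26 and 9.36 in mTR KO and 9.44, 9.48 and 9.34 in mTR WT cultures, a difference of −0.20 ± 0.13 that was −0.11 without mTR KO 1. Rrm2b read 6.34, 6.54 and 6.59 in mTR KO and 6.27, 6.55 and 6.19 in mTR WT cultures, a difference of 0.15 ± 0.10. Gadd45a differed by 0.14 ± 0.14 and Btg2 by 0.04 ± 0.14. Of the other genes, 4 of 7 cell cycle genes, 2 of 5 repair genes and 3 of 4 metabolism genes lay above 0.

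The difference between both knockout effects was tested directly. None of the 33 genes passed (limma, 0.0% of all probe sets called, smallest adjusted p = 1.00), and Sfn was the 1 gene with an unadjusted p below 0.05, against 3.34% of all probe sets. The mTERT effect on Sfn exceeded the mTR effect by 1.67 ± 0.53 (unadjusted p = 0.00896). Perp followed with 0.49 ± 0.23 (unadjusted p = 0.0590), then Rchy1 with 0.12 ± 0.09, Xpc with −0.12 ± 0.12 and Rrm2b with −0.13 ± 0.14.

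The 2 wild types were set against each other because a knockout difference can reside in its wild type. None of the 33 genes passed (limma, 0.0173% of all probe sets called, smallest adjusted p = 0.536). Sfn was lower in mTERT WT than in mTR WT by 1.32 ± 0.37 on the log2 scale (unadjusted p = 0.0045), and Perp by 0.44 ± 0.16 (0.0216), while Sesn2, a stress-responsive inhibitor of mTORC1 signalling, was higher in mTERT WT by 0.25 ± 0.11 (0.0446). These 3 of 33 genes stand against 6.78% of all probe sets with an unadjusted p below 0.05. The next smallest p belonged to Rchy1, at −0.14 ± 0.07, and Btg2, at 0.30 ± 0.14. Sfn, Perp and Rchy1 were lower in all mTERT WT cultures than in all mTR WT cultures, against 7.14% of all probe sets. In the same comparison 16 of 16 macrophage markers were higher in mTERT WT (median 0.85), as were 8 of 9 interferon-stimulated genes (median 0.82) and 14 of 14 mitotic genes (median 0.23), none of them with an unadjusted p below 0.05. Their part in the differences of Sfn, Perp and Sesn2 was not tested. This comparison and the mTR comparison share the mTR WT cultures. For Sfn the mean was 7.10 in mTERT KO, 6.77 in mTERT WT, 6.76 in mTR KO and 8.10 in mTR WT, so 3 of the 4 highest Sfn values of the study were those of mTR WT.

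One culture stood apart in the p53 targets, an observation made after the values were seen. mTR KO 1 was the lowest of the 12 cultures for 14 of 33 genes (42.4%), against 16.2% of all probe sets. These were Mdm2, Ccng1, Pmaip1, Ei24, Aen, Tnfrsf10b, Eda2r, Perp, Epha2, Btg2, Plk2, Phlda3, Zmat3 and Ak1, from 5 of the 6 role groups. In Plk2, a polo-like kinase gene, mTR KO 1 read 10.72, and the other 11 cultures 11.08 to 11.94. In Eda2r it read 7.91, and the others 8.30 to 9.07. The same culture was the highest for 5 genes, Mdm4, Bid, Ddb2, Sesn1 and Steap3 (15.2%, against 9.83% of all probe sets). The median deviation of the 33 genes from their means over 12 cultures was −0.21 in mTR KO 1, and between −0.07 and 0.14 in the other cultures. All probe sets are on the whole dimmer than the p53 targets, and shares among probe sets of like signal were not tested.

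mTR KO 1 also had the highest mean of the macrophage markers (9.79, with 9.14 and 7.77 in mTR KO 2 and 3 and 6.91, 8.55 and 8.97 in mTR WT) and of the mitotic genes (8.42, with 7.83 and 7.43 in mTR KO 2 and 3 and 7.84, 7.51 and 7.67 in mTR WT). Its fibroblast marker mean of 11.25 was the highest too, with 10.61 and 10.59 in mTR KO 2 and 3, 10.80, 10.65 and 10.66 in mTR WT, and 11.17 in mTERT KO 2, the next highest culture. The list was split. Among the mTR cultures mTR KO 1 was the highest for Pdgfra (9.98, the others 7.16 to 8.05) and Lum (9.78, the others 6.75 to 7.71). The same held for Dcn, Col3a1, Pdgfrb and Col1a2. It was the lowest of all 12 cultures for Fn1, and neither for Col1a1, Vim, Thy1 and S100a4. The part of these markers in the low p53 targets was not tested. Without mTR KO 1 the median mTR difference of the 33 genes was 0.02. Sfn was then at −1.26 (unadjusted p = 0.0150), Fas at −0.42 and Perp at −0.22. Plk2 was at 0.44 and Rrm2b at 0.23, and these 2 genes and Sfn then had an unadjusted p below 0.05, against 5.58% of all probe sets.

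**Figure D5:**
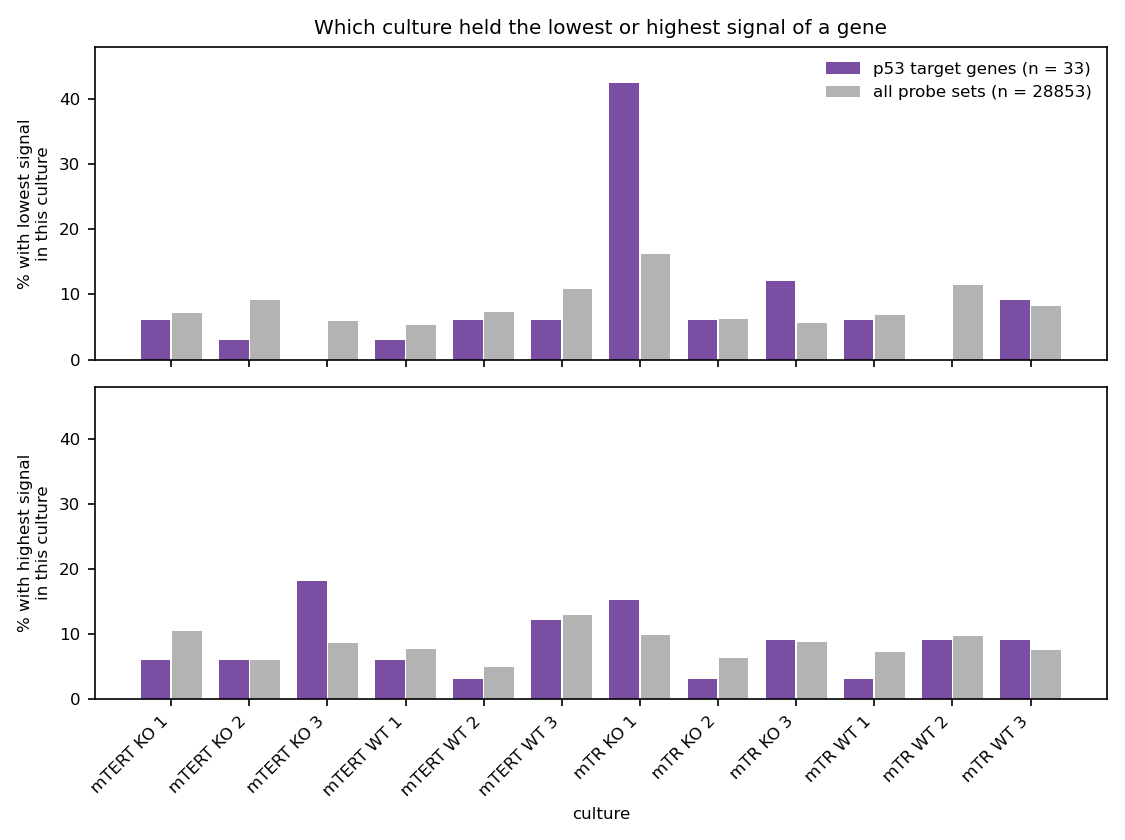
Share of the 33 p53 targets (purple) and of all 28853 probe sets (grey) for which a culture held the lowest (top) or the highest (bottom) of the 12 signals. mTR KO 1 held the lowest signal for 42.4% of p53 targets, against 16.2% of all probe sets.

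Culture number also ordered the p53 targets in the mTERT line. Number 3 was the highest in both mTERT KO and mTERT WT for 12 of 33 genes, against 19.7% of all probe sets. The 12 were Mdm2, Ccng1, Pmaip1, Bid, Ei24, Aen, Tnfrsf10b, Perp, Epha2, Sfn, Phlda3 and Ak1. For 6 genes, Mdm4, Trp53inp1, Cd82, Gadd45a, Xpc and Steap3, number 3 was the lowest in both groups, against 16.6% of all probe sets. Number 3 was thus the highest for Mdm2 and the lowest for Mdm4, which both hold p53 in check. Number 1 was the lowest in both groups for 8 genes, among them Mdm2 and Fas, against 12.4% of all probe sets. Number 2 was the lowest in both for 10 genes (18.5% of all probe sets), among them Ccng1 and Sfn, and the highest in both for 7 (10.7% of all probe sets), among them Mdm4 and Fas. Number 3 also had the lowest mean of the fibroblast markers in both groups, at 10.40 in mTERT KO 3 and 10.26 in mTERT WT 3. The other mTERT cultures read 10.92 to 11.17. The list was split. Pdgfra read 6.21 in mTERT KO 3 and 6.30 in mTERT WT 3, where the other mTERT cultures read 8.83 to 9.44. Lum, Dcn, Col3a1, Pdgfrb and Col1a2 were also lowest in number 3 of both groups. Vim and Fn1 were highest in number 3 of both groups, and Col1a1, Thy1 and S100a4 were neither in both. The mean of the mitotic genes was likewise lowest in number 3, at 7.79 in mTERT KO 3 and 7.70 in mTERT WT 3. The macrophage mean was lowest in number 1, at 7.76 in mTERT KO 1 and 8.03 in mTERT WT 1, with 9.30 to 9.65 in the other mTERT cultures. The mean of the interferon-stimulated genes was highest in number 2, at 7.12 in mTERT KO 2 and 7.22 in mTERT WT 2. It was 5.58 to 6.12 in the other mTERT cultures. The part of these markers in the order of the p53 targets was not tested. Of the 33 genes, the pair number took most of the variance in the mTERT line for Plk3 (96.8%), Ccng1 (96.4%) and Pmaip1 (94.6%). It took least for Rrm2b (9.46%), and the median over all probe sets was 55.6%.

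The other genes of the p53 pathway form a list of 40, of which 34 were measured. They include the kinases that signal DNA damage to p53, its relatives Trp63 and Trp73, caspases, cyclins and further targets. Cdkn1a, the p21 gene, is not analysed here. In the mTERT line none of the 34 had an unadjusted p below 0.05 (limma, adjusted p = 1 for each), against 1.92% of all probe sets, with a median of −0.00. The smallest p values were those of Trp73 (−0.13 ± 0.06, below background in all cultures), Siva1, a pro-apoptotic gene (0.12 ± 0.06), and Cdk2 (0.14 ± 0.10). Siva1 read 7.04, 6.99 and 6.92 in mTERT KO and 6.92, 6.82 and 6.85 in mTERT WT cultures.

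In the mTR line 1 of the 34 was higher and 2 were lower with an unadjusted p below 0.05, against 5.82% of all probe sets in either direction, and none passed the test. Gadd45b, a relative of Gadd45a, read 8.70, 8.68 and 9.15 in mTR KO and 9.33, 9.44 and 9.49 in mTR WT cultures. The 3 mTR WT cultures were the highest of all 12, and the difference was −0.58 ± 0.16 (unadjusted p = 0.0034, limma, adjusted p = 0.839). Against mTR WT, mTERT WT differed by −0.53 ± 0.16. Rprm, which encodes the arrest protein Reprimo, read 5.21, 5.57 and 5.74 in mTR KO and 5.80, 5.88 and 5.99 in mTR WT cultures, a difference of −0.38 ± 0.15 (unadjusted p = 0.0270). Trp63 was above background in 1 culture only, with a difference of 0.17 ± 0.07. Cdkn2a encodes the inhibitors p16 and p19Arf, the second of which frees p53 from Mdm2. It read 6.85, 7.09 and 7.71 in mTERT KO and 7.06, 7.03 and 7.36 in mTERT WT cultures, and 6.92, 7.44 and 7.44 in mTR KO and 7.21, 7.41 and 7.31 in mTR WT cultures. Both comparisons overlapped, with differences of 0.07 ± 0.21 and −0.04 ± 0.21.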

How the data were processed

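RNA from 12 fibroblast cultures was measured on Affymetrix Mouse Gene 1.0 ST arrays, 1 per culture. The deposited table holds log2 signals of 28853 probe sets, which the authors had summarised before deposit. PLIER, the Affymetrix Expression Console and GCOS 1.4 are named in the submitters' processing notes, with no account of what each did. The normalization between arrays and a genome build are not given in the sources used here. Quantiles differed by at most 0.0844 between arrays, so values were used as deposited. The number of arrays limits the precision, and sequencing depth does not apply.

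In the platform annotation 1 symbol was given for 21789 probe sets, more than 1 for 1621 and no symbol for 5443. limma 3.58.1 in R 4.3.3 fitted 4 group means to all 12 arrays (8 residual and 3.14 prior degrees of freedom), with Benjamini-Hochberg adjustment over all probe sets. Differences are given with the standard error of this fit and n = 3 per group. Nothing in the labels says that cultures of a group came from separate embryos beyond the 3 sets, so p-values measure the spread between these cultures. Promoter sequences came from RefSeq (GRCm38.p6). Figures were drawn with matplotlib 3.10.9.

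The p53 targets, the other lists and the tests were chosen with earlier results of these data known. Genes described singly were Mdm2 and Mdm4, the 5 with the smallest p in each of 4 contrasts, those whose knockout and wild-type cultures did not overlap, the 4 with the widest range, and, of the other pathway genes, Cdkn2a and the 3 with the smallest p in each knockout comparison. Other genes are named as examples of their group, and those at the extremes of mTR KO 1 and of culture number 3 were chosen after their values were seen. Marker lists covered fibroblast, macrophage, epithelial, interferon-stimulated and mitotic genes.

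Whether culture numbers mark pairs was checked over the 14426 brighter probe sets. Deviations from group means correlated at 0.674, 0.733 and 0.790 within the mTERT numbers and between −0.525 and −0.184 across them. Deviations cancel out within a group, so the negative values across numbers are not separate support. By the same-number values the mTERT numbers were taken as pairs. In the mTR line same-number correlations were −0.156, 0.289 and −0.377, so those were not. Simulated data held 28853 probe sets with independent noise at each probe set's own mean and spread. Changes were set into 67, 67 and 66 probe sets taken at random. The fit recovered 49.3% of log2 changes of 0.5, 94.0% of 1 and 98.5% of 2 in the mTERT comparison, and 52.2, 94.0 and 95.5% in the mTR comparison. Shifts shared by the genes of a culture were not simulated, so these shares do not give the power for the p53 targets. Alternatives were the culture number as a block, quantile normalization, median centring, removal of dim probe sets, the 6 arrays compared alone, a trended and robust variance, array weights, the mean of all probe sets of a gene, and the omission of each array.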

Additional observations from a re-analysis of the deposited data

How the results depend on the processing

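In each of 4 contrasts 0 of the 33 p53 targets passed the limma test at a 5% false discovery rate, and this count stayed at 0 under every alternative run. With a replicate block for the mTERT pairs 0 genes had an unadjusted p below 0.05 in the mTERT comparison and 5 in the mTR comparison (Fas, Mdm4, Perp, Phlda3 and Sfn, against 7.29% of all probe sets), with a smallest adjusted p of 0.389. With the number within each line as a replicate block the smallest adjusted p was 0.191 for mTR KO against mTR WT and 0.0601 for mTERT WT against mTR WT. No block changed a call, in fits that took the spread from all 12 arrays. With each array left out in turn the median difference of the 33 genes ran from −0.05 to 0.04 in the mTERT comparison, from −0.08 to 0.02 in the mTR comparison, from −0.01 to 0.09 for the difference of both effects and from −0.02 to 0.03 between the wild types. The count of genes with an unadjusted p below 0.05 was less stable. It ran from 0 to 1 in the mTERT comparison (0 with all arrays and no block), while 1.30% to 2.73% of all probe sets had such a p. The 1 gene was Fas, with the number within each line as a block. It ran from 1 to 6 in the mTR comparison (3), with 3.80% to 11.8% of all probe sets, from 1 to 2 for the difference of both effects (1), with 2.56% to 5.23%, and from 1 to 6 between the wild types (3), with 5.18% to 9.03%. Both counts of 6 came from the number block, where the shares of all probe sets were 8.49% and 9.03%. Sfn was among them in every mTR fit. Fas and Perp both missed an unadjusted p below 0.05 without mTR KO 1, mTR WT 1 or mTR WT 3. On removal of dim probe sets, which left out Perp, Fas missed it. Fas alone also missed it under quantile normalization, under a trended and robust variance, and without mTERT KO 3, mTERT WT 1, mTERT WT 3 or mTR KO 2. Perp alone missed it with array weights and without mTERT KO 1, mTERT WT 2, mTR KO 3 or mTR WT 2. The cause was not tested. Of 746 values of single genes under the alternatives none passed the test and 29 turned in sign. The mTR difference of Sfn stayed between −1.51 and −1.21. With 3 arrays per group the median 95% interval of the p53 targets reached 0.30 to either side, against 0.21 for all probe sets.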
